A study of Mus musculus with 32 samples.

Results

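Brown fat of the interscapular depot (iBAT), a tissue that burns fuel to make heat, was compared between 2 moments of the light phase, ZT6 and ZT3. Zeitgeber time (ZT) counts hours from lights on, so the comparison spans 3 h in the inactive phase of the mouse. The libraries were chosen by their time label alone: 4 at ZT3 and 4 at ZT6, 8 of the 32 libraries of a series that sampled 8 time points. Each library held the RNA of 1 mouse. All mice of both groups were male C57BL/6J animals of 10 weeks with free access to chow, kept in mild cold. The labels name no transgene, allele or agent and set the groups apart by time alone, and all 8 libraries were sequenced on lane 2. The question was which transcripts had changed between these times of day.

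Total counts of the 8 libraries ran from 16883314 to 17603189. Values below are CPM, counts scaled to a common library total after TMM correction for library composition. All 12 marker genes of brown adipocytes were detected and tested, and none of them was called. Their summed level was 12518 ± 479 CPM (SD, n = 4) at ZT3 and 13357 ± 1698 CPM at ZT6 (exact permutation test, two-sided, p = 0.486). Of the white adipocyte markers, Wt1 and Tcf21 had no count in any of the 8 libraries. The list's summed level, 162 ± 33.1 CPM at ZT3 and 102 ± 14.8 CPM at ZT6, did differ (exact p = 0.0286, the smallest that 4 against 4 mice can give), although none of its 6 tested members was called. Most of the difference lay in Retn (56.6 and 29.0 CPM) and Lep (47.6 and 23.8 CPM), while Ednra (8.14 and 8.04 CPM) and Ccdc85a (21.5 and 19.2 CPM) were close and Trpv4 was at 2.05 and 2.55 CPM. Without replicate 2 of ZT3, or without any 1 library of ZT6, the exact p was 0.0571. Replicate 2 of both times stood apart: the 14 skeletal muscle markers summed to 8150 CPM in replicate 2 of ZT3 and 2048 CPM in replicate 2 of ZT6, against 4.57 to 97.9 CPM in the other 6 libraries. These libraries separated from the others on the first principal component, which held 50.4% of the variance. Calls of named genes that were lost without both of these libraries are given with the genes. In whole tissue, fewer cells of a type and less RNA per cell cannot be told apart.

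The circadian clock is a transcriptional loop present in most cells. CLOCK or NPAS2 pairs with BMAL1, the product of Arntl, at E-box sequences and activates Per, Cry, Nr1d and output genes such as Dbp. PER and CRY proteins then repress their own activators. REV-ERB proteins (Nr1d1, Nr1d2) and ROR proteins compete at RORE sequences, through which Arntl and Nfil3 are controlled, and DBP, TEF, HLF and NFIL3 share D-box sites. Brown fat turns lipids and glucose into heat, and its clock is known to go along with rhythms of fuel uptake.

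The promoters of 5 clock genes that were called, and of Dusp8, the phosphatase gene with one of the largest falls, are shown. Those of the clock genes hold elements of these loops, and that of Dusp8 holds a cyclic AMP response element, which is not named above. Neither kind of element was confined to such genes. Hlf, a called clock output gene, had the cyclic AMP response element too, and the called genes Ass1, Hsph1 and Cbs had the E-box CACGTG. The promoters shown were chosen after the matches had been seen. The sequences are RefSeq promoter windows of GRCm38.p6, 250 bases before to 50 bases after the start, 5′ to 3′ on the strand of the gene. Capitals mark CACGTG (E-box) in Ciart, Bhlhe41 and Cry1, CACGTT (a variant E-box) also in Cry1, TAGGTCA (a RORE core) in Arntl and Nfil3, and TGACGTCA (the cyclic AMP response element, CRE) in Dusp8. The variant in Cry1 and the RORE core in Nfil3 lie on the opposite strand, so their capitals show the reverse complement, AACGTG and TGACCTA.
Ciart (chr3:95882179-95882478, minus strand): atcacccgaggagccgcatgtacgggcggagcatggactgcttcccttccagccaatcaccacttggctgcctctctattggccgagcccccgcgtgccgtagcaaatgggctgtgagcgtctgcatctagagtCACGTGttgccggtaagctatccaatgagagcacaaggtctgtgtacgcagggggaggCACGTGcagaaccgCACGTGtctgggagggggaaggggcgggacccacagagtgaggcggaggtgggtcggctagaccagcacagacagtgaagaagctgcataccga
Bhlhe41 (chr6:145865371-145865670, minus strand): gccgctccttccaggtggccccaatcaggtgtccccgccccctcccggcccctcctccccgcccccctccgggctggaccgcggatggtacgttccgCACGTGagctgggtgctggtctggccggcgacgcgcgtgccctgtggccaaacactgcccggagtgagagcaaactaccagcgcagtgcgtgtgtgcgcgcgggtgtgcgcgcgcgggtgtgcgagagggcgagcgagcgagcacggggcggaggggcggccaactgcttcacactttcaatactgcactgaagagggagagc
Cry1 (chr10:85185005-85185304, minus strand): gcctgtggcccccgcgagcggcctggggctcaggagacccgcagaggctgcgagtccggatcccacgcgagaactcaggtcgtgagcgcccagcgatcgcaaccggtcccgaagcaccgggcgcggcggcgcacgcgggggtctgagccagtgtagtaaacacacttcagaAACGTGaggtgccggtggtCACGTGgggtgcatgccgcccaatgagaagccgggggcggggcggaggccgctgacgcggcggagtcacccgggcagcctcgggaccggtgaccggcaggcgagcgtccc
Arntl (chr7:113207261-113207560, plus strand): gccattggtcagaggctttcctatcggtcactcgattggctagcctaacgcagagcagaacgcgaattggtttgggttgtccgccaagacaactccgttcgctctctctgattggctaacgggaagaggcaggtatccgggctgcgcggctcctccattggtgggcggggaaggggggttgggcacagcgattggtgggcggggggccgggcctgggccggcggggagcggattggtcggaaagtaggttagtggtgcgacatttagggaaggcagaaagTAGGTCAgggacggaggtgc
Nfil3 (chr13:52980990-52981289, minus strand): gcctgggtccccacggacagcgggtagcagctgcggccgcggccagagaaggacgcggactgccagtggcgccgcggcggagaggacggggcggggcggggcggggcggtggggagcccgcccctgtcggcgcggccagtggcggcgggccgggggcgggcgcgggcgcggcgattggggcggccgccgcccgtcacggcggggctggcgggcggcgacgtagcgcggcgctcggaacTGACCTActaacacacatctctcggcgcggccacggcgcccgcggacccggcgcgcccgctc
Dusp8 (chr7:142095235-142095534, minus strand): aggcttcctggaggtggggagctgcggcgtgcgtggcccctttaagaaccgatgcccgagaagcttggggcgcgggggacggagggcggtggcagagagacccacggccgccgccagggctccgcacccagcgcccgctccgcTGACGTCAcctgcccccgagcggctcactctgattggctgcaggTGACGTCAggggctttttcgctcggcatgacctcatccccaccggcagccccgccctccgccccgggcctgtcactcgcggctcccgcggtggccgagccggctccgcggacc
Ciart held 3 E-boxes, starting at positions -116, -58 and -44 from the start. The E-box of Bhlhe41 lay at -153. Cry1 had an E-box at -60 and the variant at -79. The RORE core of Nfil3 lay at -12, and that of Arntl at position 31 of the transcript in 1 of the 2 windows listed for this gene. The CREs of Dusp8 were at -107 and -63. On either strand, an E-box or its variant was found in 13% of the 27025 genes with a promoter, a RORE core (TAGGTCA or TGGGTCA) in 7.35% and a CRE in 2.03%. Among the 10910 tested genes that matched a promoter these shares were 17%, 6.03% and 3.43%. Since only 70.4% of the tested genes matched a promoter, no shares are given for the called genes.

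Between ZT3 and ZT6, 322 of the 15505 tested genes were called (edgeR's quasi-likelihood test in the fit of all 32 libraries, Benjamini-Hochberg adjusted p under 0.05), which is 2.08%. Of these, 134 were higher at ZT6 (0.864%) and 188 were lower (1.21%). The shifts were modest. The median log2 fold change was 0.55 over the genes called higher and -0.65 over those called lower, with -0.005 over all tested genes. A change above 2-fold was seen in 75 called genes, of which 24 were higher and 51 lower. In 290 of the 322 the 4 mice of one time did not overlap the 4 of the other, as in 1357 of all tested genes (8.75%). The count depended on single mice. Without replicate 3 of ZT6 129 genes were called, without replicate 1 of ZT3 159, without replicate 4 of ZT6 168 and without replicate 3 of ZT3 177. Without replicate 2 of both times 216 genes were called, and 185 of these were among the 322. Of 55 named genes that were called, 20 lost the call without these 2 libraries. Fitting the 8 libraries alone gave 91 genes, of which 78 were among the 322, and 31 of the 55 named calls were lost. With the replicate number as a block, 275 genes were called in the fit of 32 libraries, which is meant below by the replicate block, and 79 in the fit of the 8 libraries alone. In the latter 34 of the 55 named calls were lost, and their adjusted p are given with the genes.

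**Figure D1:**
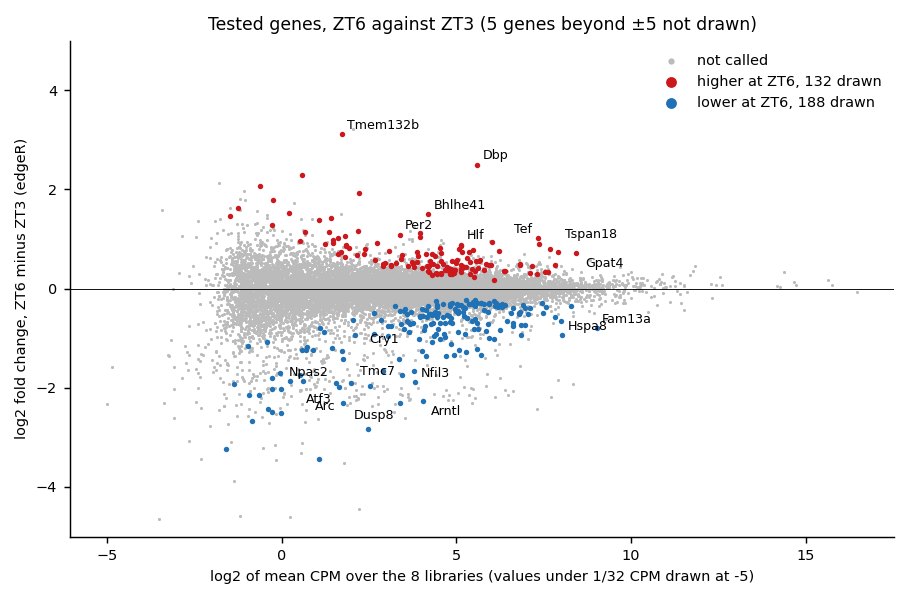
Each point is a tested gene, with its mean level over the 8 libraries (log2 CPM) on the horizontal axis and its log2 fold change, ZT6 minus ZT3, on the vertical axis. Red points are genes called higher at ZT6, blue points are genes called lower and grey points were not called. Gm10800 and Gm26870, with no count at ZT3, and 3 genes of skeletal muscle lie beyond the axis. Dbp is far from the other genes of its level, and Arntl, Dusp8 and Nfil3 lie on the opposite side.

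The positive arm of the clock was lower at ZT6. Arntl, Npas2 and Clock, the 3 genes of the activator itself, were all lower at ZT6, the only calls among the 7 tested clock activators (3 of 7 lower, against 1.21% of all genes). Arntl read 36.3, 24.3, 29.3 and 20.2 CPM in replicates 1 to 4 of ZT3, and 5.25, 4.44, 5.22 and 7.97 CPM at ZT6. The groups were widely separated, with a log2 fold change of -2.26 ± 0.25 (SE, edgeR adjusted p = 4.04e-06). Npas2, the partner that can replace CLOCK, went from 4.66 ± 0.861 CPM (SD, n = 4) to 1.23 ± 0.246 CPM, a log2 fold change of -1.91 ± 0.35 (adjusted p = 0.00348). Clock fell less, from 80.1 ± 6.45 to 62.4 ± 5.39 CPM (log2 fold change -0.36 ± 0.10, adjusted p = 0.0452). This last call was weak: it was lost without any 1 of 7 of the 8 libraries, up to an adjusted p of 0.143 without replicate 2 of ZT3, and with the replicate block (adjusted p = 0.0593), and it was 0.241 without replicate 2 of both times and 0.126 in the blocked fit of 8 libraries. Arntl2 (13.5 ± 2.32 against 11.9 ± 1.92 CPM) and the ROR genes Rora and Rorb did not pass the test.

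The 15 clock repressors split: 3 were higher at ZT6 (0.864% of all tested genes were), 2 were lower (1.21% of all) and 10 did not pass. Nfil3, a repressor at D-boxes, fell from 30.0, 17.7, 26.5 and 15.0 CPM at ZT3 to 3.70, 3.13, 8.47 and 8.69 CPM at ZT6. The highest ZT6 value was below the lowest of ZT3, and the log2 fold change was -1.89 ± 0.26 (adjusted p = 0.000112). Cry1, which encodes the strongest repressor of the CLOCK complex, went down from 14.5 ± 4.08 to 8.25 ± 1.61 CPM (-0.81 ± 0.15 on the log2 scale, adjusted p = 0.00419). Per2, Ciart and Bhlhe41 moved in the opposite direction. Per2 was at 7.38, 4.58, 6.44 and 8.17 CPM at ZT3 and at 13.8, 14.7, 13.7 and 14.2 CPM at ZT6, so the spread between mice was small at the later time (log2 fold change 1.09 ± 0.24, adjusted p = 0.0155). Ciart, whose product binds and inhibits the CLOCK complex, rose from 1.44 ± 0.563 to 3.89 ± 1.28 CPM (1.43 ± 0.30, adjusted p = 0.00966). Bhlhe41 rose from 9.52 ± 3.59 to 27.1 ± 9.37 CPM (1.51 ± 0.33, adjusted p = 0.014), although its lowest ZT6 value, 14.3 CPM, fell within the range of ZT3. Per2 lost its call without replicate 2 of ZT3 (adjusted p = 0.0608). Without replicate 2 of both times all 3 rising repressors missed the threshold, with adjusted p of 0.0934 for Per2, 0.0802 for Ciart and 0.0856 for Bhlhe41, while their log2 fold changes were 0.92, 1.14 and 1.34. In the blocked fit of 8 libraries Nfil3 (adjusted p = 0.0664), Cry1 (0.0983) and Ciart (0.165) were not called. With the 8 libraries alone and no block, Nfil3 (0.0509), Cry1 (0.107), Ciart (0.099) and Bhlhe41 (0.0676) were not called, while Per2 was (0.02).

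Several core repressors showed no call. Per1 was at 41.9 ± 18.6 CPM at ZT3 and 41.7 ± 12.5 CPM at ZT6 (adjusted p = 0.994), and its sign turned in 5 of the alternative fits. Per3 read 49.5 ± 6.1 and 78.4 ± 23.8 CPM (log2 fold change 0.66 ± 0.19, adjusted p = 0.0606). The REV-ERB genes were high at both times: Nr1d1 was at 169 ± 18.0 and 223 ± 24.1 CPM (adjusted p = 0.417), and Nr1d2 at 70.5 ± 10.5 and 91.6 ± 13.0 CPM (adjusted p = 0.333). Cry2, the paralogue of Cry1, was at 56.2 ± 7.79 and 47.7 ± 6.4 CPM (adjusted p = 0.427). Bhlhe40 ranged from 54.5 to 255 CPM at ZT3 and from 113 to 199.99 CPM at ZT6 (adjusted p = 0.92).

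**Figure D2:**
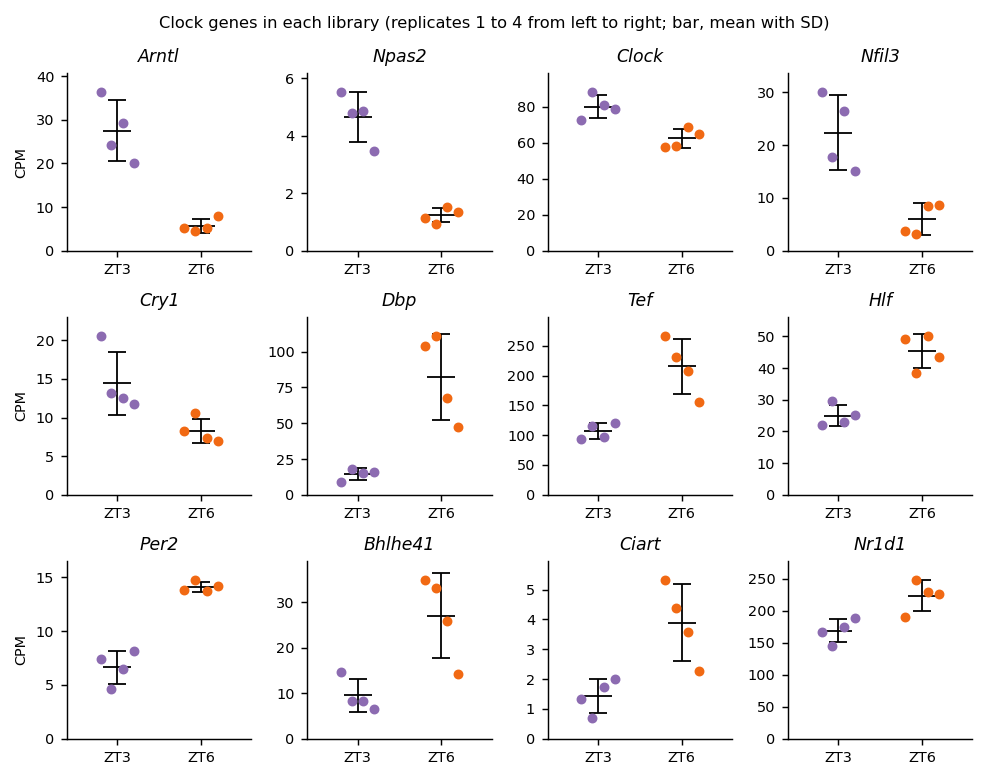
Each panel gives the level of 1 clock gene in CPM for the 4 libraries of ZT3 (purple) and the 4 of ZT6 (orange), with the mean and SD as a bar, on axes that start at 0. Arntl, Npas2, Clock, Nfil3 and Cry1 are lower at ZT6. Dbp, Tef, Hlf, Per2, Bhlhe41 and Ciart are higher, and Nr1d1 did not pass the test.

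Among the clock output genes the proline and acidic amino acid-rich (PAR) factors rose together. All 3 of them, Dbp, Tef and Hlf, were called higher, and with Por they were the 4 risers among 13 tested output genes, of which 1 was lower and 8 did not pass (all tested genes, 0.864% higher and 1.21% lower). Dbp had the largest fold change of the called genes above 10 CPM in the mean of the 8 libraries. It was at 8.76, 18.0, 15.1 and 16.2 CPM at ZT3 and at 104, 111, 67.8 and 47.5 CPM at ZT6. Every ZT6 mouse exceeded every ZT3 mouse, and within ZT6 replicates 1 and 2 were about as high as each other while replicate 4 was lowest (log2 fold change 2.50 ± 0.24, adjusted p = 3.77e-07). Tef was at 266, 231, 208 and 156 CPM at ZT6, again with replicate 4 lowest, against 94.3 to 121 CPM at ZT3 (1.01 ± 0.17, adjusted p = 0.0013). Hlf rose from 25.0 ± 3.38 to 45.3 ± 5.36 CPM (0.86 ± 0.16, adjusted p = 0.00281). Por, which encodes the electron donor of cytochrome P450 enzymes, rose from 190 ± 15.8 to 263 ± 20.4 CPM (0.47 ± 0.11, adjusted p = 0.021). Its call was lost without any 1 of 4 libraries (adjusted p up to 0.0708, without replicate 1 of ZT3) and without replicate 2 of both times (adjusted p = 0.12). The member that fell was Lonrf3, from 1.69 ± 1.01 to 0.29 ± 0.252 CPM (-2.51 ± 0.46, adjusted p = 0.00281, and 0.101 with the 8 libraries alone and no block). Nampt, the rate-limiting enzyme of NAD salvage, was at 369 ± 41.2 and 311 ± 34.0 CPM and did not pass (adjusted p = 0.366). Neither did Klf10, at 96.9 ± 19.3 and 41.1 ± 25.2 CPM (adjusted p = 0.152), or Noct, at 66.8 ± 52.6 and 35.3 ± 14.0 CPM (adjusted p = 0.42). The blocked fit of 8 libraries did not call Tef (adjusted p = 0.0639), Hlf (0.0535) or Por (0.0987).

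Of the means over 8 time points, that of Dbp was highest at ZT9 (171 CPM) and that of Tef at ZT12 (418 CPM), whereas Arntl was lowest at ZT12 (1.15 CPM) and Nfil3 at ZT6. Time points from ZT9 on were sequenced on other lanes, so lane and time cannot be told apart in these means. Over all 134 genes called higher, 73 had their highest mean of the day at ZT6 (54.5%), 25 at ZT9 and 18 at ZT12. Over the 188 called lower, 119 had theirs at ZT3 (63.3%) and 32 at ZT0, and 97 had their lowest at ZT6 (51.6%). Of all tested genes, 12.1% were highest at ZT6 and 15% at ZT3. These shares are a description, since a gene called for a difference between ZT3 and ZT6 is chosen for extreme means at these times.

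**Figure D3:**
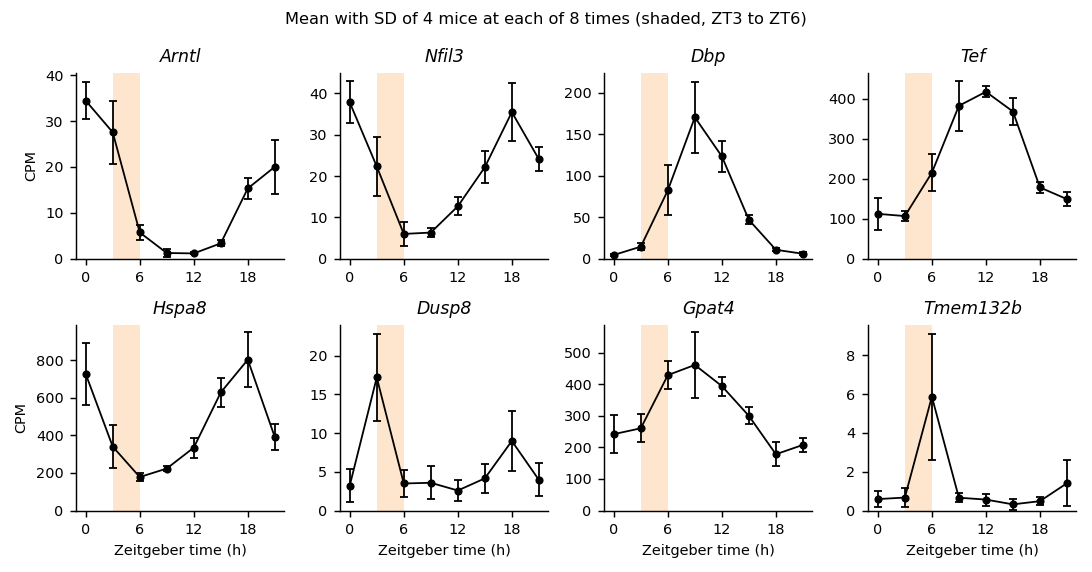
Each panel follows 1 gene over 8 zeitgeber times (horizontal axis, h), with the mean and SD of 4 mice in CPM on the vertical axis and the interval from ZT3 to ZT6 shaded. Arntl, Nfil3 and Hspa8 fall across the shaded interval and Dbp, Tef and Gpat4 rise, the last 3 with means that are higher still at ZT9. Dusp8 at ZT3 and Tmem132b at ZT6 stand above the other times.

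Beyond the clock, the largest falls included early response and stress genes. Arc, an immediate early gene best known from neurons, was at 4.80, 7.25, 5.80 and 4.58 CPM at ZT3 and at 1.25, 1.77, 0.785 and 0.724 CPM at ZT6 (-2.30 ± 0.49, adjusted p = 0.0113, and 0.0554 without replicate 3 of ZT6). Dusp8, which encodes a phosphatase acting on the stress-activated kinases JNK and p38, was at 22.1, 9.05, 18.2 and 19.5 CPM at ZT3 and at 5.91, 3.55, 1.91 and 2.62 CPM at ZT6. The groups did not overlap, as the rule that named this gene required (-2.30 ± 0.50, adjusted p = 0.0124). The call was lost without replicate 3 (adjusted p = 0.0655) or replicate 4 of ZT6. At the other 6 times the mean of Dusp8 lay between 2.59 and 8.99 CPM. Nfe2l3, a transcription factor of the NRF family, went from 9.25 ± 0.991 to 2.36 ± 0.512 CPM (-1.97 ± 0.38, adjusted p = 0.00481), and its mean at the other times was at most 3.73 CPM. Tmc7, of the transmembrane channel-like family, fell from 6.19 ± 0.443 to 1.66 ± 0.62 CPM and had the lowest adjusted p of all genes called lower (-1.90 ± 0.20, 2.06e-06). Cdkn1a, the cell cycle inhibitor p21, fell from 66.9 ± 13.6 to 28.7 ± 5.49 CPM (-1.22 ± 0.23, adjusted p = 0.0038). It was the only call both in the cell cycle list (29 tested) and among the glucocorticoid targets (15 tested), while 1.21% of all tested genes were called lower. With the replicate block, or with the 8 libraries alone and no block, 2 glucocorticoid targets were called lower.

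Of 25 tested immediate early genes, 6 were lower, against 1.21% of all tested genes, and none was higher at ZT6. Their median log2 fold change was -0.72, and 22 of the 25 had a negative sign, as had 51.1% of all tested genes. Fosl2, a subunit of AP-1, fell from 45.7, 30.9, 80.4 and 64.1 CPM to 28.4, 20.7, 19.1 and 23.0 CPM (-1.28 ± 0.24, adjusted p = 0.00406). Jund, another AP-1 subunit, went from 49.3 ± 9.06 to 26.3 ± 0.562 CPM (-0.91 ± 0.21, adjusted p = 0.0198), with its call lost without any 1 of 5 libraries (up to 0.0686, without replicate 3 of ZT6). Besides these and Arc, the called members were high in some mice of ZT3 only. Atf3 was at 1.80, 1.80, 10.0 and 6.05 CPM at ZT3 and between 1.18 and 1.34 CPM at ZT6 (adjusted p = 0.0198, lost without any 1 of 4 libraries, up to 0.142 without replicate 3 of ZT3). Egr3 and Nr4a3, named after their values were seen, were also highest in replicates 3 and 4: Egr3 was at 0.72, 1.20, 8.64 and 4.82 CPM at ZT3, and Nr4a3 at 1.08, 1.36, 29.1 and 7.58 CPM. Egr3 lost its call without any 1 of 5 libraries and Nr4a3 without any 1 of 6. Their adjusted p were highest without replicate 3 of ZT3 (0.149 and 0.447). Nr4a3 was also not called with the replicate block (adjusted p = 0.142). Slc25a25, a mitochondrial carrier of adenine nucleotides and phosphate, was at 6.00, 8.34, 36.0 and 17.1 CPM at ZT3 and at 4.37 to 5.55 CPM at ZT6 (-1.75 ± 0.42, adjusted p = 0.0249). Its call was lost without any 1 of 4 libraries (up to 0.208, without replicate 3 of ZT3). Irs2, an insulin receptor substrate chosen after its values were seen, was at 39.1 and 39.0 CPM in replicates 1 and 2 of ZT3 but at 303 and 200 CPM in replicates 3 and 4, and at 32.8 ± 4.15 CPM at ZT6. It was not called (adjusted p = 0.109). Over the list, leaving out 1 library gave between 1 call (without replicate 3 of ZT6) and 6 calls, and leaving out replicate 2 of both times gave 5, with a median log2 fold change of -1.33. Nr4a3 was the member lost in that set (adjusted p = 0.0564). In the blocked fit of 8 libraries 2 were called, without Fosl2 (adjusted p = 0.0945), Atf3 (0.15), Egr3 (0.17) and Nr4a3 (0.388), and Slc25a25 was at 0.21.

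Of 25 tested heat-shock genes, 3 were called lower, against 1.21% of all tested genes, none higher, and 22 did not pass. A negative sign was found in 23, and the median log2 fold change was -0.25. With the replicate block 1 call was left, that of Hspa8, and none in the blocked fit of 8 libraries (Hspa8 at 0.147, Dnaja1 at 0.0664 and Hsph1 at 0.0771). The 8 libraries alone without the block gave none either, and leaving out 1 library left 1 to 3. Hspa8, the constitutive cytosolic chaperone HSC70, fell from 498, 227, 346 and 290 CPM at ZT3 to 151, 194, 174 and 194 CPM at ZT6 (-0.93 ± 0.19, adjusted p = 0.00652). Its mean was lowest at ZT6 of all 8 time points. Dnaja1, a co-chaperone of HSP70, went from 52.9 ± 11.5 to 33.9 ± 1.95 CPM (-0.64 ± 0.17, adjusted p = 0.0435), and Hsph1, a nucleotide exchange factor for it, from 47.6 ± 23.3 to 20.3 ± 4.25 CPM (-1.23 ± 0.33, adjusted p = 0.0467). Both of these calls were lost with the replicate block (adjusted p = 0.0607 and 0.0571). They were also lost without most single libraries, 7 of 8 for Dnaja1 and 6 of 8 for Hsph1, up to 0.183 and 0.21 without replicate 3 of ZT3. Hsph1 was at 0.0692 without replicate 2 of both times. The inducible Hspa1a and Hspa1b were under 2 CPM in all 8 libraries and did not pass. Hspa8 shares 28.2% of its 100-base transcript stretches with other annotated genes, first among them Gm15459. That pseudogene and Gm8355, which resembles it, were called lower too, by -0.99 ± 0.20 and -0.96 ± 0.21 on the log2 scale (adjusted p = 0.00581 and 0.0118, the latter 0.0772 without replicate 1 of ZT3, and 0.172 and 0.108 in the blocked fit of 8 libraries), so reads of these 3 genes may have been exchanged in the counting. Of 25 endoplasmic reticulum chaperones and unfolded protein response genes, only Pdia4, a disulfide isomerase, was called: 39.1 ± 3.19 against 31.2 ± 1.51 CPM (-0.32 ± 0.08, adjusted p = 0.0418, lost without any 1 of 6 libraries, up to 0.132, at 0.09 without replicate 2 of both times and at 0.115 in the blocked fit of 8 libraries). Of 24 tested genes of the integrated stress response, 2 were lower, Atf3 and Cbs, with a median of -0.19, and at most 1 of them was called without any 1 library. Cbs, an enzyme of cysteine synthesis, was at 0.622 ± 0.179 and 0.156 ± 0.122 CPM (adjusted p = 0.0366, and 0.052 with the replicate block), with its call lost without any 1 of 6 libraries, up to 0.131, and at 0.133 without replicate 2 of both times.

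**Figure D4:**
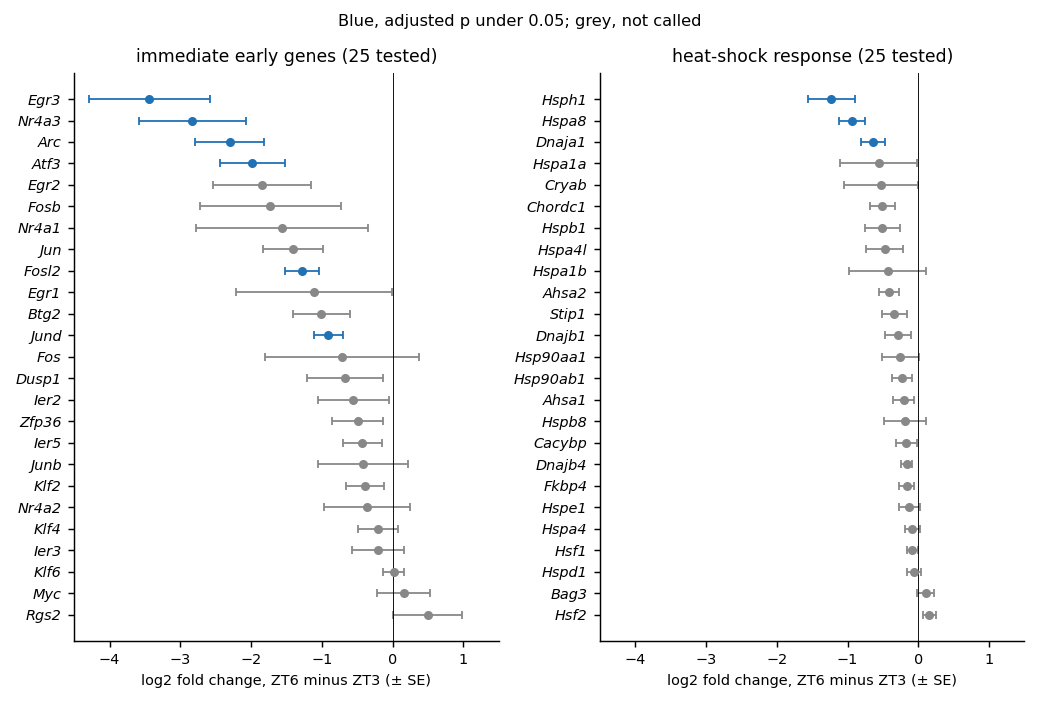
Log2 fold change, ZT6 minus ZT3, with its SE for the 25 tested immediate early genes (left) and the 25 tested heat-shock genes (right). Blue genes were called and grey genes were not. 6 immediate early genes and 3 heat-shock genes were called lower, and none of either list was called higher.

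Of 31 tested insulin signalling genes, 3 were lower, against 1.21% of all tested genes, none was higher and 28 did not pass. Without replicate 3 of ZT6, or without replicate 2 of both times, 1 was called lower. Tbc1d4, the AKT substrate that holds back GLUT4 vesicles, was at 125, 115, 134 and 109 CPM at ZT3 and at 79.3, 87.2, 67.3 and 63.7 CPM at ZT6. It kept its call without each single library (-0.70 ± 0.13, adjusted p = 0.00253). Tsc1, a subunit of the complex that restrains mTORC1, went from 43.1 ± 4.33 to 32.7 ± 2.61 CPM (-0.40 ± 0.09, adjusted p = 0.0165, lost without any 1 of 2 libraries, up to 0.0889 without replicate 3 of ZT6, and at 0.0538 without replicate 2 of both times). Both of these genes encode negative regulators. Slc2a4, the insulin-responsive glucose transporter GLUT4, was at 403 to 521 CPM at ZT3 and 270 to 555 CPM at ZT6 (adjusted p = 0.938). Ghr, the growth hormone receptor, was at 262, 347, 373 and 260 CPM and at 202, 265, 160 and 161 CPM (-0.65 ± 0.15, adjusted p = 0.0223, lost without any 1 of 4 libraries, up to 0.112 without replicate 3 of ZT6). Among called genes the largest fall in CPM was that of Fam13a, a gene linked to fat distribution, from 655 ± 157 to 377 ± 48.4 CPM (-0.80 ± 0.18, adjusted p = 0.0146, lost without any 1 of 2 libraries, up to 0.0796 without replicate 1 of ZT3). Serpinh1, the collagen chaperone HSP47, and Macf1, a cytoskeletal crosslinker, were the other genes among the 5 largest falls. Serpinh1 was at 272 ± 46.7 and 183 ± 30.5 CPM (adjusted p = 0.0284, lost without any 1 of 4 libraries, up to 0.127 without replicate 3 of ZT3). Macf1 was at 347 ± 24.9 and 272 ± 19.4 CPM (adjusted p = 0.0164, lost without any 1 of 2 libraries, up to 0.069 without replicate 4 of ZT6, and at 0.0637 without replicate 2 of both times). The blocked fit of 8 libraries did not call Tsc1 (0.0771), Ghr (0.106), Fam13a (0.0535), Serpinh1 (0.116) or Macf1 (0.165).

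Some further called genes, singled out after their values were seen, kept their call without each single library. Tshr, the thyrotropin receptor, was at 23.8, 29.3, 26.4 and 20.9 CPM at ZT3 and at 12.7, 12.6, 8.02 and 6.13 CPM at ZT6 (-1.35 ± 0.24, adjusted p = 0.00281). Acvr1c, which encodes the activin receptor ALK7 of adipocytes, fell from 151 ± 20.7 to 78.6 ± 9.93 CPM (-0.95 ± 0.16, adjusted p = 0.00174). Slc1a4, a transporter of neutral amino acids, fell from 4.95 ± 0.941 to 1.84 ± 0.279 CPM (-1.42 ± 0.17, adjusted p = 2.12e-05). Slc9a3r2, a scaffold protein of the NHERF family, rose from 44.8 ± 3.89 to 85.8 ± 18.5 CPM (0.94 ± 0.13, adjusted p = 0.000126). In each of these 4 genes the mice of ZT3 and ZT6 did not overlap.

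The 5 largest rises in CPM among called genes were those of Gpat4, Tspan18, Fbxo21, Tef and Slc27a2. Gpat4, which encodes an acyltransferase of the first step of glycerolipid synthesis, was at 203, 261, 269 and 309 CPM at ZT3 and at 405, 383, 442 and 485 CPM at ZT6. The groups did not overlap (0.72 ± 0.17, adjusted p = 0.0198), though the call was lost without any 1 of 3 libraries (up to 0.0873, without replicate 1 of ZT3). It was the only call among 17 tested genes of triglyceride synthesis, of which 16 had a positive sign (median log2 fold change 0.11). Of all tested genes, 0.864% were called higher and 51.1% had a negative sign. Slc27a2, a fatty acid transport protein and acyl-CoA synthetase, was at 114 ± 34.2 and 213 ± 41.5 CPM (0.90 ± 0.24, adjusted p = 0.0451), and Fbxo21, a subunit of a ubiquitin ligase, at 151 ± 39.3 and 262 ± 18.0 CPM (0.80 ± 0.21, adjusted p = 0.0451). Both calls were lost with the replicate block (adjusted p = 0.0642 and 0.0655) and without most single libraries, up to 0.159 and 0.174 without replicate 1 of ZT3. Without replicate 2 of both times Slc27a2 was at 0.095 and Fbxo21 at 0.123. In the blocked fit of 8 libraries Fbxo21 was at 0.0851 and Pltp at 0.0963. Tspan18, a tetraspanin, rose from 179 ± 15.8 to 299 ± 25.7 CPM (0.74 ± 0.18, adjusted p = 0.0225, lost without any 1 of 4 libraries, up to 0.0816 without replicate 3 of ZT6, and at 0.094 without replicate 2 of both times). Pltp, the phospholipid transfer protein, rose from 47.5 ± 2.14 to 66.7 ± 9.89 CPM (0.49 ± 0.11, adjusted p = 0.0176, 0.0823 without replicate 1 of ZT6 and 0.0685 without replicate 2 of both times), the only call among 14 tested genes of the lipoprotein lipase pathway (0.864% of all tested genes were called higher).

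Some of the largest fold changes were in low transcripts. Tmem132b, a transmembrane protein gene, was at 0.30, 1.09, 0.232 and 1.06 CPM at ZT3 and at 8.30, 7.69 and 6.34 CPM in replicates 1 to 3 of ZT6, but at 1.17 CPM in replicate 4. The mean of the other 6 times was at most 1.41 CPM (3.11 ± 0.60, adjusted p = 0.00479). Chrna2, an acetylcholine receptor subunit, rose from 0.505 ± 0.192 to 2.49 ± 1.39 CPM (2.29 ± 0.57, adjusted p = 0.0313, lost without any 1 of 5 libraries, up to 0.133 without replicate 4 of ZT6, and at 0.0788 without replicate 2 of both times). Ass1, argininosuccinate synthase of the urea cycle, rose from 0.983 ± 0.108 to 2.17 ± 0.0869 CPM (1.14 ± 0.23, adjusted p = 0.00666). Gm5424, which shares 54.5% of its 100-base stretches with Ass1, rose by 1.13 ± 0.18 (adjusted p = 0.000765), and the reads of this pair may have been exchanged. The noncoding transcripts B430219N15Rik and 2900089D17Rik lie over a gene on the other strand, and the sources do not say whether strand was used in counting. They rose from 1.93 ± 0.493 to 7.37 ± 2.81 CPM and from 2.82 ± 0.714 to 6.30 ± 0.455 CPM (adjusted p = 0.000941 and 0.0236), and the latter lost its call without any 1 of 5 libraries (up to 0.0894, without replicate 3 of ZT3) and without replicate 2 of both times (0.0882). The blocked fit of 8 libraries did not call Tmem132b (0.109), Ass1 (0.0664), Gm5424 (0.0535) or 2900089D17Rik (0.0529).

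Gm10800 and Gm26870 had no count in any library of ZT3 and 54 to 64 and 38 to 66 counts in each library of ZT6. Their levels at ZT6 were 3.37 ± 0.16 and 2.97 ± 0.752 CPM. Against a floor of 3 counts summed over the 4 libraries of ZT3 these were at least 77.8-fold and at least 68.6-fold higher (edgeR adjusted p = 1.31e-07 and 2.29e-06). Such floors cover counting error only. At the other 6 times the means were at most 0.429 and 0.32 CPM. Gm10800 lies at chr2:98666547-98667301 and Gm26870 at chr9:3000282-3038313 of GRCm38, both on the minus strand, and 9 annotated genes overlap Gm26870 on the other strand. Those 9 genes together had 17 to 23 counts in each library of ZT6. Whether the counts stem from transcription of Gm10800 and Gm26870 was not tested.

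**Figure D5:**
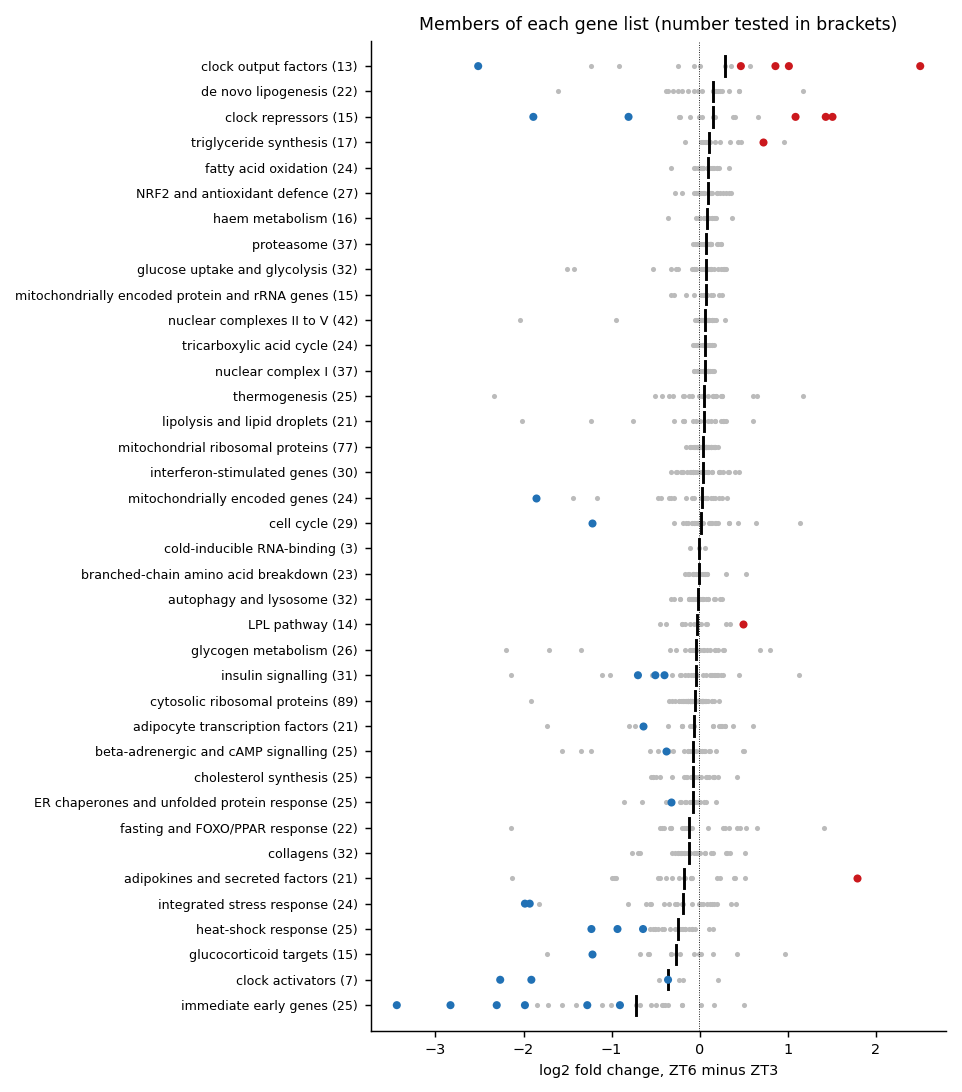
Each row is a gene list with the number of members tested, and each point is the log2 fold change, ZT6 minus ZT3, of a member. Red points were called higher at ZT6, blue points were called lower, grey points were not called, the bar is the median of the list and the dotted line the median of all genes. The immediate early genes hold 6 calls, the most of any list by number, and 22 of the 38 lists hold none. By share called they (24%) come after the clock activators (42.9%), output factors (38.5%) and repressors (33.3%).

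With 2.08% of all tested genes called, a list of the sizes used here would often hold no call, so nothing is read from the lists without one. None of the 25 tested thermogenic genes was called, and Ucp1, the uncoupling protein, was at 2134 ± 111 and 2539 ± 831 CPM (adjusted p = 0.74). No gene was called among 22 of de novo lipogenesis, 25 of cholesterol synthesis, 24 of fatty acid oxidation, 21 of lipolysis and lipid droplets, 32 of glucose uptake and glycolysis, 26 of glycogen metabolism, 22 of the fasting response and 23 of branched-chain amino acid breakdown. Their median log2 fold changes lay between -0.13 and 0.15. The upper end, de novo lipogenesis, turned to -0.11 without replicate 2 of both times, and the median of branched-chain amino acid breakdown turned from -0.01 to 0.02. Scd1, the desaturase with the highest level in its list, was at 47599 ± 9458 and 53537 ± 23490 CPM (adjusted p = 0.857), and its log2 fold change turned from 0.17 to -0.11 without replicate 2 of both times. Likewise without a call were 27 genes of antioxidant defence, 16 of haem metabolism, 32 of autophagy and lysosomes, 30 interferon-stimulated genes, 24 of the tricarboxylic acid cycle and 3 cold-inducible RNA-binding proteins. Nor was any of the 37 nuclear genes of complex I, the 42 of complexes II to V, the 89 cytosolic ribosomal proteins, the 77 mitochondrial ones, the 37 proteasome genes or the 32 collagens called, with medians between -0.13 and 0.08. A positive sign was found in 32 of 37 proteasome genes, 36 of 42 of complexes II to V, 30 of 37 of complex I, 20 of 24 of fatty acid oxidation, 54 of 77 mitochondrial and 21 of 89 cytosolic ribosomal proteins. Of all tested genes, 51.1% had a negative sign. Signs are given for some of the lists only, and no list was tested as a set. Mitochondrially encoded genes took 24.3% ± 0.859 of the counts at ZT3 and 24.3% ± 2.52 at ZT6 (exact permutation test, p = 1), and of these genes only the transfer RNA mt-Te was called (1.84 ± 0.841 against 0.495 ± 0.333 CPM, adjusted p = 0.021). Its call was lost without any 1 of 4 libraries (up to 0.0864, without replicate 1 of ZT3). Single calls elsewhere were Crtc3, a CREB coactivator, Ebf1, a transcription factor of adipocytes, and Fgf9, a growth factor. Crtc3 was at 24.4 ± 3.59 and 18.8 ± 1.69 CPM, Ebf1 at 107 ± 14.8 and 68.1 ± 13.3 CPM, and Fgf9 at 0.375 ± 0.154 and 1.31 ± 0.0898 CPM. Their adjusted p were 0.0464, 0.0225 and 0.0449, and each was lost without any 1 of at least 6 libraries, up to 0.23, 0.0808 and 0.144. Without replicate 2 of both times they were at 0.07, 0.128 and 0.111. Crtc3 also missed the threshold with the replicate block (0.0672). In the blocked fit of 8 libraries Crtc3 was at 0.231, Ebf1 at 0.149, Fgf9 at 0.0688 and mt-Te at 0.133.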

How the data were processed

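RNA of whole iBAT was sequenced in paired-end reads from strand-specific libraries. The deposited values are raw read counts per gene, not normalized. The authors mapped the reads to mm10 with GSNAP (2017-09-11) and counted Ensembl genes with HTSeq (0.6.1), per the submitters' processing notes and the study's methods. The strand setting of the counting is not given in the sources used here.

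Genes were filtered with filterByExpr of edgeR (4.0.16, R 4.3.3), which left 15505 of 50686, and scaled with TMM. The contrast of ZT6 minus ZT3 was tested with edgeR's quasi-likelihood test in a fit of all 32 libraries, with Benjamini-Hochberg adjustment and a threshold of 0.05. SE are those of this test. Summed marker levels were compared by exact permutation tests, two-sided. DESeq2 (1.42.0), other scalings, filters and sample sets were alternatives. Named genes were the 12 highest and 12 lowest log2 fold changes among called genes with at least 1 CPM and no overlap, the 5 largest rises and falls in CPM, all clock list members and up to 4 called members of each other list (with none called, its most abundant member and the one with the lowest p). Some genes this rule gives are not reported here. The gene lists, markers and tests were chosen with earlier results of these data known. The scripts were tested on simulated data.

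The lowest chi-square per gene between replicates was 8.45, far above counting noise, so each library was counted as a separate sample. Deviations of same-numbered libraries of ZT3 and ZT6 correlated with r from 0.148 to 0.696, all over 0.1, so replicate numbers were treated as pairs in a blocked fit. Unlike numbers among replicates 1, 3 and 4 also correlated (0.0741 to 0.436), and the labels do not say what a number marks. P-values of the main fit rest on a spread between mice that was estimated over all 32 libraries. Those of the exact tests rest on the 8 libraries compared.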

Additional observations from a re-analysis of the deposited data

Results flagged for a closer look

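Of the 264 sets of 4 values examined (the named genes and the library measures at ZT3 and at ZT6), 13 held a value far from the other 3 by Dixon's test at the 95% level (4.92%), about the 1 in 20 that chance alone would flag. At ZT3 replicate 2 was low for Prdm16 (25.2 CPM, against 34.5 to 35.2 CPM in the others) and for the share of counts in the 20 most abundant genes (33%, against 36.1% to 36.6%). Replicate 3 of ZT3 was low for Per3 (40.5 CPM) and replicate 1 was high for Crtc3 (29.8 CPM). At ZT6 replicate 2 was high for the summed skeletal muscle markers (2048 CPM, against 4.57 to 7.76 CPM) and for the summed white adipocyte markers (124 CPM, against 93.9 to 96.5 CPM), and low for Ndufa11 (103 CPM) and Suclg1 (682 CPM). Replicate 4 of ZT6 was low for Tmem132b (1.17 CPM, against 6.34 to 8.30 CPM) and Keap1 (47.5 CPM) and high for Chrna2 (4.57 CPM, against 1.61 to 1.91 CPM). Replicate 3 of ZT6 was high for Bhlhe40 (199.99 CPM, against 113 to 122 CPM) and low for Jund (25.5 CPM, against 26.5 to 26.6 CPM).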

How the results depend on the processing

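No called gene changed its sign under any of the alternatives. DESeq2's Wald test called 453 genes, 318 of them among the 322. The count stayed within 1.5 times of 322 with DESeq2 size factors, library size alone (88 higher), without mitochondrially encoded genes, with no filter, with a minimum of 1 CPM and with the replicate block in the fit of 32 libraries (275, of which 261 were shared). It moved further in smaller fits: 91 genes (36 higher, 55 lower) with the 8 libraries alone, 74 (25 and 49) with the 12 libraries of lane 2 and 79 (20 and 59) with the replicate block and 8 libraries. Against a 1.5-fold change 9 genes passed (4 and 5). Leaving out 1 library gave 129 to 314 genes, 45 to 148 higher and 84 to 166 lower. Leaving out both replicates numbered 2, an alternative added after the data were seen, gave 80 higher. Of the 55 named genes that were called, 22 stayed past the threshold without each of the 8 libraries, 8 lost it in 1 to 3 of these fits and 25 in 4 or more. The replicate block in the fit of 32 libraries took the call from 7 of them and gave one to Hilpda (log2 fold change -1.25, adjusted p = 0.0369). Hilpda was at 0.0579 in the main fit, 0.014 with DESeq2's Wald test and 0.134 in the blocked fit of the 8 libraries. The block in the fit of 32 libraries also took the call of Nr4a3, named outside the rule (adjusted p = 0.142), and changed no other call named here. In the blocked fit of the 8 libraries 34 of the 55 lost the call and 1, Cbs, was not tested. The same numbers gave the highest correlation for 2 of 4 libraries of ZT3. The difference in summed white adipocyte markers, -60.0 CPM (ZT6 minus ZT3), ranged from -72.0 to -47.4 CPM without 1 library and was -54.7 CPM without both replicates numbered 2 (exact p = 0.1, the smallest possible there). That in mural cell markers, 68.4 CPM, ranged from 40.7 to 99.4 CPM, with an exact p of 0.0286 in 1 of these 8 sets. With only the 250 bases before the start, an E-box or its variant was found in 10.9% of genes with a promoter, a RORE core in 6.15% and a CRE in 1.77%. The causes of these shifts were not tested.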

Other observations

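The signal of Gm10800 and Gm26870 was shared by neighbouring genes. Gm10801, which the filter removed, had 9 to 14 counts in each library of ZT6 and none at ZT0, ZT3 or ZT9. The 9 genes on the other strand of Gm26870 had 17 to 23 counts together in each library of ZT6, at most 1 at ZT3, and 2 to 6 at ZT12. Over all 50686 genes, 3 had at least 8 counts in every library of ZT6 and at most 2 in all of ZT3 together, which were these 3, and none showed the reverse.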
